A study of Mus musculus with 2 samples.

Results

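The genes for axon guidance ligands and receptors were compared between mouse E14 embryonic stem cells (ESCs) and E14-Sox2TA/WT cells by RNA-seq. Members were the rows of the mm10 gene table whose symbol belongs to the Eph receptors, ephrins, semaphorins of classes 3 to 7, plexins, neuropilins, netrins, netrin receptors, slits or robos, which gave 70 of 24532 genes, of which 35 encode ligands and 35 encode receptors. E14 is an established line of male mouse ESCs and was labeled WT. E14-Sox2TA/WT cells, labeled Sox2 T258A mutant, derive from E14 as a clone edited with CRISPR/Cas9 so that 1 Sox2 allele encodes alanine instead of threonine at residue 258, a site of O-GlcNAc addition. Per the study's methods, E14 was grown in serum with leukemia inhibitory factor, whereas the clone was selected and kept with inhibitors of Mek and Gsk3 that were withdrawn before use, so genotype, clone and culture history cannot be told apart. Each genotype had 1 library, so the differences below could not be checked against replicates and carry no p-values.

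Axon guidance molecules steer growing neurites by attraction or repulsion, and the same ligand and receptor pairs set boundaries and contacts between cells in epithelia, blood vessels and the early embryo. Ephrins are bound to the membrane, ephrin-A by a lipid anchor and ephrin-B by a transmembrane segment, and they activate Eph receptor tyrosine kinases on the neighboring cell. Semaphorins act through plexins, with neuropilins as co-receptors for most secreted class 3 semaphorins. Netrins bind Dcc, neogenin and Unc5 receptors, and slits bind robos.

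The libraries held 60263536 counted reads in E14 and 44609228 in E14-Sox2TA/WT cells, of which 84053 and 78532, respectively, fell on the 70 members. Sox2 itself had a TPM (a transcript level scaled for gene length and library size) of 372.5 in E14 and 274.2 in E14-Sox2TA/WT cells. The table holds no sequence, so the edit could not be seen. The 10 pluripotency markers examined all had a TPM over 10 in both libraries, and of them only Nanog (527 and 251) was more than 2-fold lower. Summed TPM of the marker lists for other cell types went from 426 to 363 for 12 neural genes, from 8.80 to 27.2 for 8 mesendoderm genes, from 334 to 163 for 8 primitive endoderm genes, from 78.1 to 41.6 for 8 trophoblast genes and from 55.1 to 26.3 for 10 fibroblast genes. Neural markers were uneven, with Sox1, Pax6, Neurod1 and Elavl4 more than 2-fold higher in E14-Sox2TA/WT cells and Dcx at 0 and 3 reads. Of the fibroblast markers, Dcn, Lum and Postn had 0 reads in both libraries, as did the trophoblast marker Elf5. The lower sums of the trophoblast and fibroblast lists rest largely on Tfap2c (50.9 and 16.1) and Thy1 (40.1 and 11.4). In the same 2 lists, Cdx2 (0.474 and 12.2), Col3a1 (15 and 151 reads) and Col1a2 (43 and 109 reads) were more than 2-fold higher in E14-Sox2TA/WT cells. The part of these cell states in the results below was not tested. In bulk RNA, more cells of a type and more RNA per cell cannot be told apart.

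The summed TPM of the axon guidance genes was 520 in E14 and 729 in E14-Sox2TA/WT cells, of a total of 993247 and 994155 over all genes. A TPM of 10 was reached by 16 members in each library, by 13 in both and by 19 in at least 1 of them. The mean TPM of both libraries was 1 or more for 47 members, called expressed here, 23 lay under it, and only Epha3 had no read in either library. In E14, the highest levels were those of Epha2 (TPM 65.1), Plxnb2 (60.0), Plxna1 (48.2), Epha4 (31.1) and Sema4b (29.2). In E14-Sox2TA/WT cells, Epha2 (177), Plxnb2 (69.7), Plxna1 (56.5) and Sema4b (38.9) were followed by Ntn1 (32.5), which ranked 25 among the members in E14.

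**Figure D1:**
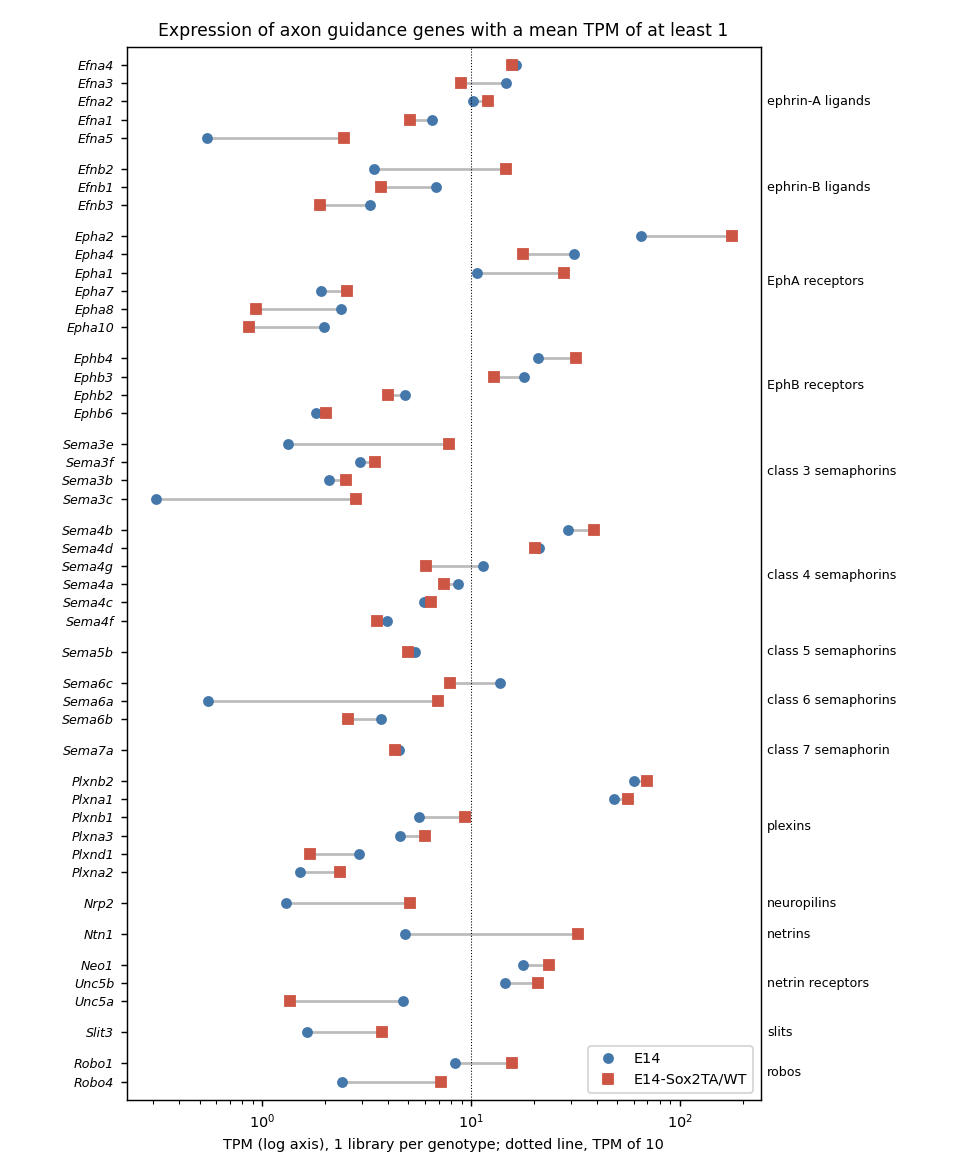
TPM of the 47 expressed members in E14 (blue circles) and E14-Sox2TA/WT cells (red squares), 1 library each, on a log axis, with family names at the right. The widest gaps are those of Sema6a (0.548 and 6.96), Sema3c (0.307 and 2.79) and Ntn1 (4.80 and 32.5).

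The study's methods kept genes reaching a TPM of 10 in either library and called ratios over 2-fold. On those terms, 4 of the 19 members past the filter were higher in E14-Sox2TA/WT cells, and none was lower. These were Ntn1, Efnb2, Epha2 and Epha1. Among all 9094 genes past the filter, 4.17% (379) were more than 2-fold higher and 4.07% (370) more than 2-fold lower. The study reported other counts for this comparison, and the reason for the difference was not tested. Ntn1 and Efnb2 passed the filter through E14-Sox2TA/WT cells alone, so only Epha2 and Epha1 were at a TPM of 10 or more in both libraries. The 95% interval from read counting (exact Clopper-Pearson) lay wholly past 2-fold for all 4 genes. Such intervals cover counting error alone, and they are too narrow where PCR copies of a molecule are counted as separate reads.

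Among the 47 expressed members, 11 were more than 2-fold higher and 3 were more than 2-fold lower. The corresponding shares of all 13269 expressed genes were 5.86% and 8.44%. The median log2 ratio of the 47 members, on the log2(TPM + 0.1) scale, was 0.23, beside 0.04 for all 13269 genes. Of 25 ligands, 7 were more than 2-fold higher, none was more than 2-fold lower, and the other 18 lay between -0.90 and 0.41. Sema6a, Sema3c and Efna5 were over a TPM of 1 in E14-Sox2TA/WT cells alone, and Slit1 (187 and 21 reads) was left out by its mean, so the split of the ligands depends in part on the filter. Of 22 receptors, 4 were more than 2-fold higher and 3 were more than 2-fold lower. Epha8 and Epha10, 2 of those 3, were over a TPM of 1 in E14 alone. Receptors left out by their means included Robo3 (161 and 39 reads), which was lower, and Robo2 (0 and 13 reads), which was higher. The split of the receptors therefore also depends in part on the filter. The median was -0.06 for ligands and 0.40 for receptors. With a trend on transcript length and GC content removed, the ligand median had the other sign (0.12) and the receptor median was 0.11, so neither the sign for ligands nor the distance between the groups was stable.

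**Figure D2:**
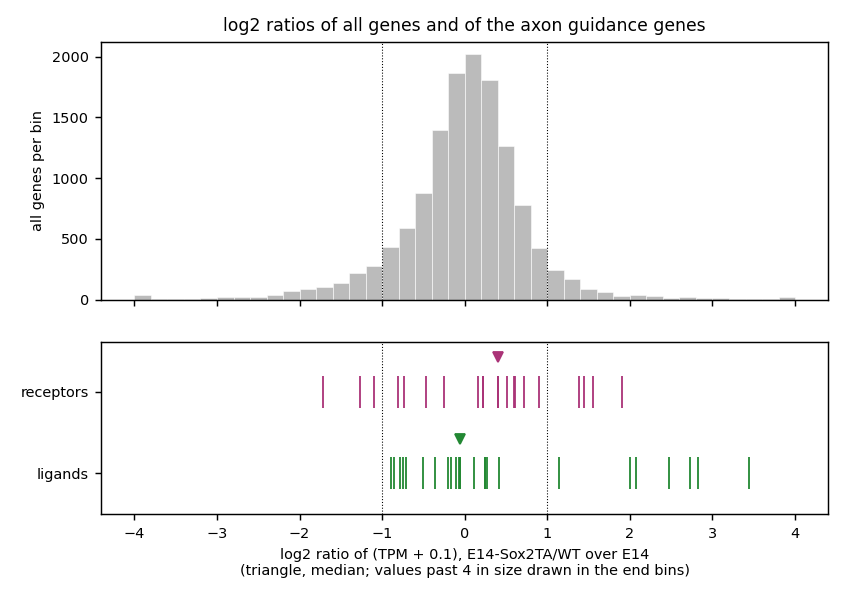
Number of genes per bin of log2((TPM + 0.1) ratio), E14-Sox2TA/WT over E14, for all 13269 expressed genes (grey bars, top), with 1 tick for each of the 22 receptors and 25 ligands (bottom) and triangles at their medians. Dotted lines mark 2-fold. The 7 ligands past the right line stand apart from the other 18, whose highest value is 0.41. That gap depends on the filter. Sema5a (75 and 96 reads, 0.70), named after its values were seen, lies in the gap but was left out by its mean TPM.

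Eph receptors were the family with the most TPM. The 14 receptor genes summed to a TPM of 159 in E14 and 278 in E14-Sox2TA/WT cells, with Epha2 as the gene that differed most in level. Epha2, a receptor for ephrin-A ligands that is widely expressed in epithelia, was counted with 8060 reads in E14 and 14713 in E14-Sox2TA/WT cells, which gave a TPM of 65.1 and 177. Its log2 ratio was 1.45 (95% counting interval 1.41 to 1.49). Epha2 was the highest of all members in both libraries, and it made up 41.0% of the Eph receptor TPM in E14 and 63.8% in E14-Sox2TA/WT cells.

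Epha1, the founding member of the family and another ephrin-A receptor, had a TPM of 10.7 (1100 reads) in E14 and 27.9 (1929 reads) in E14-Sox2TA/WT cells, a 2.62-fold ratio (2.43 to 2.82). Its exons share 236 bases with those of Zyx, which lies on the opposite strand and codes for an actin-associated adhesion protein. Zyx was also higher in E14-Sox2TA/WT cells, with 1743 and 3433 reads and a TPM of 20.3 and 62.2. Whether the counting used strand is not stated, so reads in the shared bases cannot be told apart, and their part in the value of Epha1 was not tested. The transcript of Epha1 used here is 3273 bases long.

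The remaining expressed EphA receptors were lower in E14-Sox2TA/WT cells, except Epha7. Epha4, a receptor that binds both ephrin classes and is best known from the spinal cord and hindbrain, had 6208 and 2365 reads and a TPM of 31.1 and 17.7. The log2 ratio of -0.81 (-0.88 to -0.75) was short of 2-fold, and it was past 2-fold (-1.19) only with the length and GC trend removed. Epha4 went from the second to the third place among the EphA receptors, behind Epha1. Epha8 (TPM 2.37 and 0.930, log2 ratio -1.35) and Epha10 (1.96 and 0.864, -1.18), a receptor without kinase activity, were more than 2-fold lower at low levels. Both were within 2-fold with a pseudocount of 1 TPM. Epha7 was higher, with a TPM of 1.90 and 2.53 (0.42, 0.20 to 0.63). Epha5 and Epha6 had at most 3 reads in each library, which allows no fold.

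None of the 4 expressed EphB receptors was past 2-fold. Ephb4, the partner of ephrin-B2 at the border of arteries and veins, was the highest of them, with 2866 and 2903 reads, a TPM of 31.7 in E14-Sox2TA/WT cells and a TPM ratio of 1.51 (1.44 to 1.59). Ephb3, which with Ephb2 positions cells in the intestinal crypt, had a TPM of 17.9 and 12.9 (log2 ratio -0.48, -0.58 to -0.37). Ephb2 (log2 ratio -0.26) and Ephb6 (TPM 1.81 and 2.03) were close between libraries, and Ephb1 was under a TPM of 0.1 in both.

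Ephrins differed in makeup more than in sum. The sum over the 8 ephrin genes was 61.8 in E14 and 64.6 in E14-Sox2TA/WT cells, and its direction turned with the FPKM values (0.946 of E14). Efnb2, a transmembrane ligand known for its part in artery formation and as a ligand of Ephb4, had 466 and 1339 reads and a TPM of 3.42 and 14.7, a 4.30-fold ratio (3.86 to 4.78). Both other ephrin-B genes went the other way. Efnb1 on the X chromosome had a TPM of 6.76 and 3.70 (-0.87, -1.08 to -0.66), and Efnb3 had 3.26 and 1.89 (-0.78, -1.09 to -0.49). The leading ephrin-B gene was therefore Efnb1 in E14, with 50.3% of the TPM of the 3 genes, and Efnb2 in E14-Sox2TA/WT cells, with 72.4%.

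Among ephrin-A ligands, the 3 highest genes were within 2-fold. Efna4 had a TPM of 16.4 and 15.7 (log2 ratio -0.06, -0.22 to 0.10), and its sign changed with the length and GC trend removed (0.18). Efna3 had 14.7 and 8.97 (-0.71, -0.94 to -0.49), and Efna2 had 683 and 542 reads (log2 ratio 0.24, 0.08 to 0.41). Efna1, Efna3 and Efna4 are neighbors on chromosome 3 (89271730 to 89338028, GRCm38), with 32.9 kb between the first and the second and 10.5 kb between the second and the third, and Efna1 had a TPM of 6.52 and 5.08. Efna5, a ligand that guides retinal axons, stood apart at a low level, with 90 and 275 reads, a TPM of 0.540 and 2.47 and a log2 ratio of 2.19 (1.85 to 2.55).

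The sequences upstream of the 3 Eph and ephrin genes more than 2-fold higher at a TPM of 10 are shown, since a change in a transcription factor was the subject of the study. They come from RefSeq promoter windows on GRCm38.p6, which held 60 of the 70 members, and only bases before the annotated start of the gene are printed, on the strand of the gene. The core Sox motif CATTGT was searched on both strands and was in none of the 3, beside 10.7% of the 32851 upstream windows of 250 bases of all genes and 9.21% of the 76 windows of members. Capitals mark 3 other motifs on either strand, chosen after the windows had been read, which are CCAAT (in 33.8% of all windows), GGGCGG (32.7%, and 71.1% of the windows of members) and TGACGTCA (1.55%). No match overlaps another in these windows. The first window is chr4:141300971-141301220 on the plus strand, the second is chr6:42373315-42373518 on the minus strand and the third is chr8:8661243-8661492 on the minus strand.
Epha2: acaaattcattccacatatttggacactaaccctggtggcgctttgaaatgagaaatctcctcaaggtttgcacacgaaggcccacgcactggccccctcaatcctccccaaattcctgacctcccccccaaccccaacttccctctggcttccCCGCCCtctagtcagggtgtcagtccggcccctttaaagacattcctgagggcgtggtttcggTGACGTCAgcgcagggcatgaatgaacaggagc
Epha1: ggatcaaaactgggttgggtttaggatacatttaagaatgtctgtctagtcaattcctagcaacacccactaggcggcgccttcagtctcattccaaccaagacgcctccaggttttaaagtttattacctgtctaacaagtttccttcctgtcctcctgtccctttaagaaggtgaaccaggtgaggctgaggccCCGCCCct
Efnb2: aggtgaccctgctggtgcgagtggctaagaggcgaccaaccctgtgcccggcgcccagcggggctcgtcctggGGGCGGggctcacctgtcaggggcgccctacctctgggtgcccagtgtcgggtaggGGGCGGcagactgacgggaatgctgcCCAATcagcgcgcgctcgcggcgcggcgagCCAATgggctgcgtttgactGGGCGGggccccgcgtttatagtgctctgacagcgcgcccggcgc
Efnb2 holds CCAAT 2 times and GGGCGG 3 times, Epha1 holds GGGCGG once, and Epha2 holds GGGCGG once and TGACGTCA, the full cAMP response element, close to its start. A match in letters is a description and shows no binding.

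**Figure D3:**
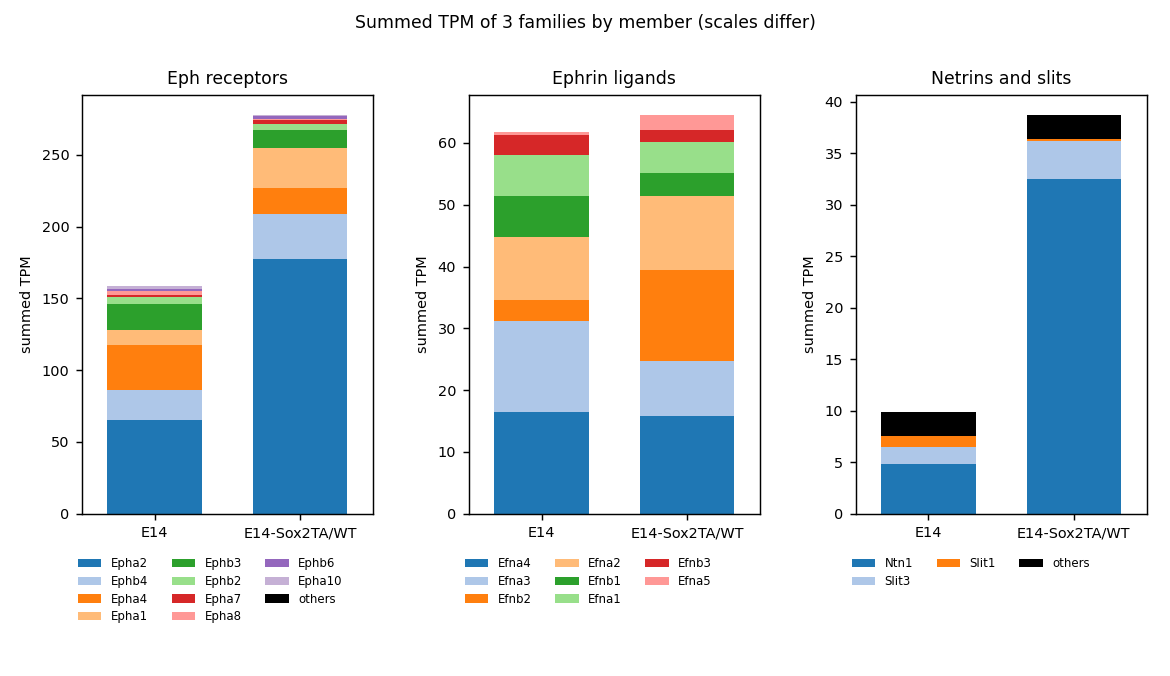
TPM in E14 and E14-Sox2TA/WT cells (1 library each), stacked by gene, for Eph receptors, ephrin ligands and netrins with slits, on separate axes that start at 0. The Eph receptor bars reach 159 and 278 with Epha2 at the base (65.1 and 177), the ephrin bars are of like height (61.8 and 64.6) with a different makeup, and the third pair goes from 9.92 to 38.7 with Ntn1 at the base. Genes under a TPM of 1 in both libraries are summed in black as others.

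Semaphorins as a family were close in sum, with a TPM of 115 and 127 over 20 genes, while 3 of them were among the members with the largest ratios. Sema6a, a transmembrane semaphorin that signals through plexin-A2 and plexin-A4, had 120 reads in E14 and 1012 in E14-Sox2TA/WT cells, a TPM of 0.548 and 6.96. Its log2 ratio of 3.67 (3.39 to 3.95) was the highest of the 47 members. Sema6a went from the third place in its class to the second, behind Sema6c, which had a TPM of 13.7 and 7.88 (-0.80, -0.93 to -0.66). Sema6b was at 3.69 and 2.56.

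The other 2 were secreted class 3 semaphorins. Sema3c, which acts in the cardiac outflow tract, had 48 and 293 reads, a TPM of 0.307 and 2.79 and a log2 ratio of 3.18 (2.74 to 3.66). Sema3e, a ligand that binds plexin-D1 directly, had 287 and 1136 reads, a TPM of 1.32 and 7.84 and a log2 ratio of 2.57 (2.38 to 2.76). Sema3f (2.93 and 3.48) and Sema3b (2.08 and 2.53), 72.3 kb apart on chromosome 9, were close between libraries, and their intervals began next to no change. Class 3 semaphorins summed to a TPM of 6.93 and 16.9, and Sema3e took 19.1% of it in E14 and 46.3% in E14-Sox2TA/WT cells. Sema3d had 0 and 12 reads, and Sema3a had 2 and 8 reads, a TPM ratio of 5.97 with an interval from 1.19 to 57.7.

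Class 4 semaphorins, which are transmembrane and include ligands of B-type plexins, held most of the semaphorin TPM (80.4 and 82.6) and none was past 2-fold. Sema4b had a TPM of 29.2 and 38.9 (log2 ratio 0.41, 0.34 to 0.48). Sema4d, the ligand of plexin-B1, had 21.2 and 20.2 (-0.07, -0.15 to 0.01). Sema4g had 11.4 and 6.06 (-0.91, -1.05 to -0.77) and was past 2-fold (-1.05) only with the FPKM values. Sema5b (5.36 and 4.99) and the lipid-anchored Sema7a (4.52 and 4.32) were near level, and the sign of Sema7a changed with the trend removed (0.02).

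Semaphorin receptors were led by a pair of plexins. Plxnb2, a receptor for class 4 semaphorins, had a TPM of 60.0 in E14 and 69.7 in E14-Sox2TA/WT cells (log2 ratio 0.22, 0.18 to 0.25). Plxna1, which pairs with neuropilins, had 48.2 and 56.5 (0.23, 0.19 to 0.26). With the length and GC trend removed these values were 0.02 and -0.10, so no direction is given for either. Of the 6 expressed plexins, none was past 2-fold, and they ranged from Plxnd1 (log2 ratio -0.77) to Plxnb1 (0.73). Nrp2, a co-receptor for Sema3c and Sema3f, was the exception among semaphorin receptors, with 269 and 710 reads, a TPM of 1.30 and 5.12 and a log2 ratio of 1.98 (1.78 to 2.19). Nrp1, its paralog, was under a TPM of 1 in both libraries (0.281 and 0.525).

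**Figure D4:**
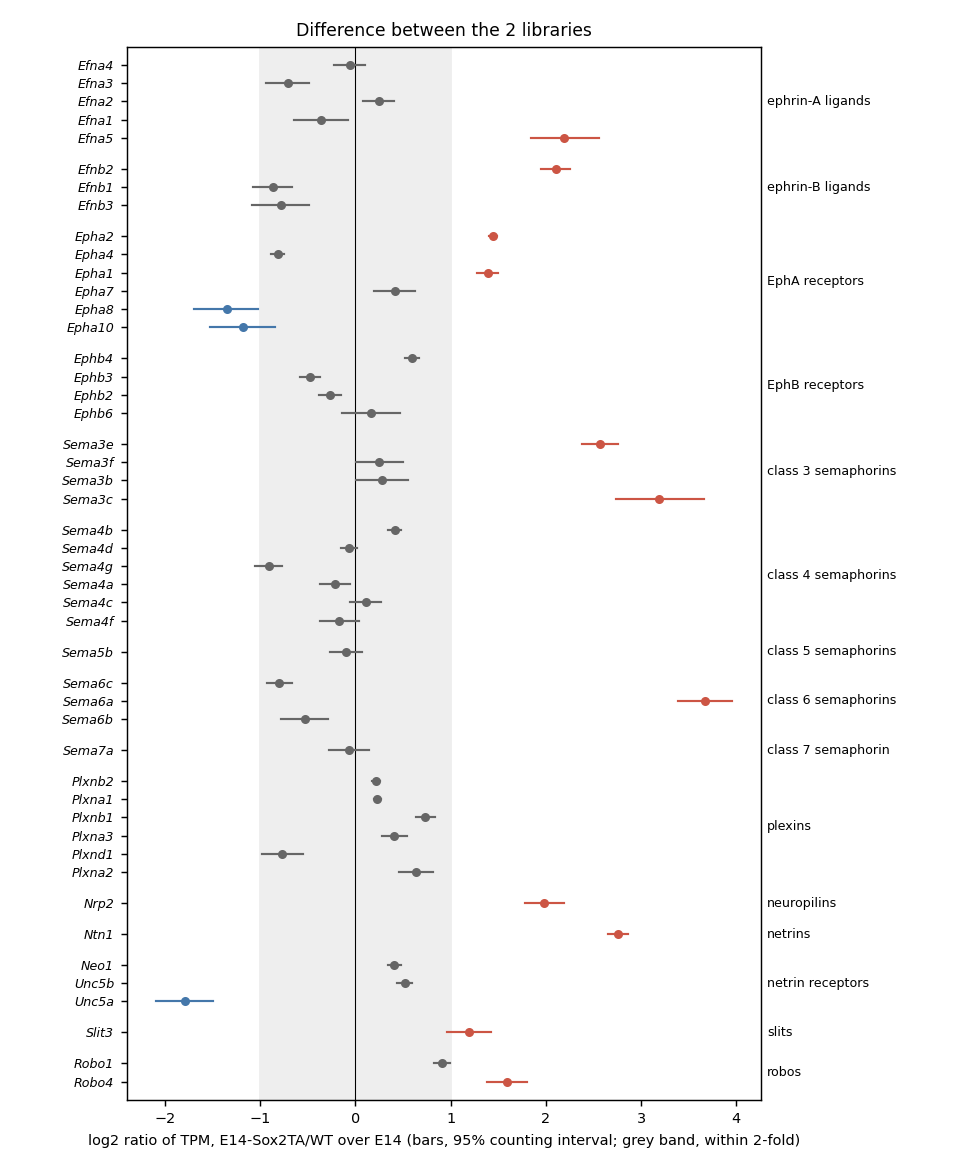
log2 ratio of TPM, E14-Sox2TA/WT over E14, for the 47 expressed members, with bars for the 95% counting interval and a grey band within 2-fold. Red marks the 11 members more than 2-fold higher, from Slit3 (1.19) to Sema6a (3.67), and blue marks Unc5a (-1.79), Epha8 (-1.35) and Epha10 (-1.18).

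Ntn1 had the largest ratio of the 19 members that reached a TPM of 10. Ntn1, a secreted cue that attracts or repels axons depending on the receptor, had 867 reads in E14 and 3931 in E14-Sox2TA/WT cells, a TPM of 4.80 and 32.5. The log2 ratio was 2.76 (2.65 to 2.87), and it ranged from 2.53 to 2.76 over the alternatives run. The other netrins stayed under a TPM of 1 in both libraries. Ntn1 accounted for 77.0% of the netrin TPM in E14 and 95.6% in E14-Sox2TA/WT cells.

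Of the 3 expressed netrin receptors, none was more than 2-fold higher and Unc5a was more than 2-fold lower. Neo1, the gene for neogenin, had a TPM of 17.7 and 23.5 (log2 ratio 0.41, 0.34 to 0.47), which came to 0.06 with the length and GC trend removed. Unc5b, known from blood vessels and as a dependence receptor that can promote cell death without ligand, had 14.6 and 20.8 (0.52, 0.44 to 0.59). Unc5a was the receptor with the lowest ratio of the 47 members, at 568 and 111 reads, a TPM of 4.70 and 1.36 and a ratio of 0.289 (0.234 to 0.355). Dcc, the receptor for attraction in commissural axons, had 20 and 25 reads and a TPM of 0.060 and 0.111. Neo1 made up 47.7% of the netrin receptor TPM in E14 and 51.2% in E14-Sox2TA/WT cells, and Unc5b made up 39.2% and 45.3%.

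Slits were low in both libraries, and robos were at higher levels. Slit3 was the highest slit, with 258 and 394 reads, a TPM of 1.64 and 3.73 and a log2 ratio of 1.19 (0.96 to 1.42), an interval that reached within 2-fold. Slit1, named here after its values were seen because its mean TPM was under 1, had 187 and 21 reads and a log2 ratio of -2.61 (-3.34 to -1.96), and Slit2 had a TPM of 0.926 and 0.869. Robo1, a receptor for slits in axons and many other tissues, had a TPM of 8.37 and 15.8, a 1.88-fold ratio whose interval ended just under 2-fold. Its log2 ratio of 0.91 came to 0.57 with the length and GC trend removed. Robo4, best known from endothelial cells, had 291 and 587 reads, a TPM of 2.39 and 7.21 and a log2 ratio of 1.59 (1.38 to 1.80). Its neighbor Robo3, 2.02 kb away on chromosome 9 and also named after its values were seen, had 161 and 39 reads and a log2 ratio of -1.49 (-2.03 to -0.98), so adjacent robo genes differed in opposite directions. Robo2 had 0 and 13 reads.

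Signaling partners of these receptors were examined with 64 genes listed from general knowledge, of which 63 matched a row. Of these 54 were expressed, with 2 more than 2-fold higher, 3 more than 2-fold lower and a median of 0.17, beside the shares of 5.86% and 8.44% and the median of 0.04 for all genes. Both genes that were higher came from the list of semaphorin and plexin partners, and with 2 genes no theme can be drawn. Crmp1, a collapsin response mediator that binds tubulin, had a TPM of 27.0 and 60.2 (log2 ratio 1.16, 1.08 to 1.23), and Mical2, an oxidase that acts on actin, had 126 and 214 reads (1.35, 1.03 to 1.68). Grb10 (-1.05, -1.15 to -0.94) was the lowest of the Eph partners, and Ntng2 (109 and 5 reads, -4.01) was the lowest of the other ligands and co-receptors. The lowest semaphorin partner was Fes (-0.58, -0.94 to -0.22). The highest were Vav3 (0.66) among Eph partners, Trio (0.85), a guanine nucleotide exchange factor, among netrin and slit partners, and Rgmb (0.95), a membrane-anchored ligand of neogenin, among other ligands and co-receptors.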

How the data were processed

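Polyadenylated RNA was sequenced on an Illumina NovaSeq system, with 1 library per genotype. The submitters' processing notes name bcl2fastq 2.20.0, Trimmomatic, HISAT2 2.1.0 and StringTie 2.1.3b without their roles. The handling of strand and of reads shared between genes is not given in the sources used here. The authors gave 3 units per library. The read counts of the authors are raw whole numbers per gene, as deposited. The FPKM columns of the authors adjust for gene length and sequenced fragments, and TPM, also from the authors, is further set to nearly the same total in each library. Every value column was used.

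Ratios of TPM were taken without a pseudocount, with a filter of 10 TPM in at least 1 library and a 2-fold threshold, as in the study's methods. Medians used log2(TPM + 0.1) over genes whose mean TPM was 1 or more. Counting intervals (95%, scipy 1.17.1) were placed on the TPM scale, and the floor of 3 reads was 0.0498 CPM in E14 and 0.0673 in E14-Sox2TA/WT cells. Gene positions came from RefSeq (GRCm38.p6) and exon overlaps, transcript lengths and GC content from GENCODE M21. Scripts were tested on simulated counts. Genes named were members with a TPM of at least 10 in a library, expressed members (mean TPM of 1 or more) past 2-fold, and the highest member of each family. Members and lists were chosen with earlier results of these data known. Alternatives were other filters and thresholds, a pseudocount of 1, FPKM, centring, rescaled counts (DESeq2 1.42.0 size factors, or TMM in edgeR 4.0.16), and removal of a trend on transcript length and GC content (medians in 20 bins each, overall median kept). The values of 1 signaling partner are not reported here.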

Additional observations from a re-analysis of the deposited data

How the results depend on the processing

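No paired analysis was possible because each genotype had 1 library. The count of members more than 2-fold higher at a TPM of at least 10, 4 of 19, became 11 of 49 with a filter at a TPM of 1 (6.45% of all genes) and 18 of 69 with no filter (10.1%). The count more than 2-fold lower, 0 of 19, became 5 (9.95% of all genes) and 7 (18.7%). At 1.5-fold, 6 members were higher (14.2% of all genes) and 4 were lower (10.5%). The count lower was 1 with FPKM (Sema4g, 5.45% of all genes) and 1 with the trend on transcript length and GC content removed (Epha4, 3.35%). More members are admitted by the wider filters and the lower threshold by construction. TPM was 1.94 times FPKM in E14 and 2.15 times FPKM in E14-Sox2TA/WT cells, so FPKM lowered the ratios of all members by the same factor. For the trend the cause was not tested. FPKM lowered the median of all genes from 0.04 to -0.10. The median of the members stayed between 0.08 (FPKM) and 0.24 (mean TPM of at least 10) and above the median of all genes in each setting. Rescaling and FPKM move both medians nearly alike. With the trend removed, the median of the members was 0.12 beside 0.04 for all genes, a smaller distance than in the main setting. Of 31 named members, 14 were past 2-fold, none of the 14 changed sign, and 11 were past 2-fold in all 6 rescaling, pseudocount and trend settings, the exceptions being Slit3 (0.84), Epha8 (-0.81) and Epha10 (-0.67) with a pseudocount of 1. The sign of Efna4, Plxna1 and Sema7a changed with the trend removed. A pseudocount cannot turn a sign, and each rescaling or FPKM moves all genes by nearly the same small amount. For the 14, only the trend removal could therefore have changed a sign. Single libraries leave the variation between cultures unmeasured.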
